A study of Mus musculus with 7 samples.

Results

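The DNA replication machinery examined here is a list of 44 genes fixed by symbol: the proteins that license and unwind origins, the polymerases and primase, the sliding clamp and its loader, the enzymes that supply deoxynucleotides, and the factors that rebuild chromatin and copy DNA methylation behind the fork. All 44 were found by symbol among the 24964 genes of the deposited table, and all 44 passed the filter on low values, a mean of at least 1 FPKM over the 7 libraries. Whole uterus was sequenced from mice aged 12 weeks and recorded in diestrus. The 3 control libraries (numbers 1, 2 and 4) have the genotype Pgrcre/+, and the 4 libraries labelled Foxl2LsL (numbers 1 to 4) have the genotype Pgrcre/+Foxl2LsL/+. Every library thus came from a uterus with a Cre allele driven by the gene of the progesterone receptor, found in uterine epithelium, stroma and muscle, so the comparison concerns the Foxl2LsL allele on a Cre background. FOXL2, a forkhead transcription factor known from the ovary, is the protein the study set out to raise in this organ, by its title.

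Replication starts when the origin recognition complex, CDC6 and CDT1 load the ring-shaped MCM helicase onto DNA in the G1 phase, a step known as licensing, and geminin then blocks CDT1 so that no origin is licensed again. In S phase CDC45 and the GINS complex join the MCM ring to form the active helicase, primase starts each strand, and the delta and epsilon polymerases extend it while held by the PCNA ring. Many of these genes are transcribed in bursts as cells enter S phase, under E2F transcription factors. In the adult uterus, division of epithelial and stromal cells follows estrogen and progesterone through the cycle.

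Promoters are shown for 3 of the members. Of the 9 members with an E2F-type match and values by library below, these are the ones whose printed stretch held at most 30 annotated exon bases. The motifs searched were TTTCCCGC, TTTGGCGC, TTTCGCGC and TTTGCCGC on both strands, within 250 bases before to 50 after the start given by RefSeq on GRCm38.p6. Each line below holds 250 bases before and 30 after the start, 5′ to 3′ on the strand of the gene, with the matches in capitals. Mcm5, a subunit of the helicase ring, lies at chr8:75109259-75109538 on the plus strand, and its capitals hold a pair of overlapping matches that begin at positions -153 and -149 from the start. The stretch of Mcm3, another subunit, is chr1:20820283-20820562 on the minus strand, with a match that begins at base 20 after the start. Uhrf1, which brings the maintenance methyltransferase to new DNA, has its stretch at chr17:56304063-56304342 on the plus strand, with a match that begins at position -185. This stretch lies inside the gene, which begins at 56303321. Another Uhrf1 window, chr17:56303087-56303386, spans that gene start and held no E2F-type match.
Mcm5: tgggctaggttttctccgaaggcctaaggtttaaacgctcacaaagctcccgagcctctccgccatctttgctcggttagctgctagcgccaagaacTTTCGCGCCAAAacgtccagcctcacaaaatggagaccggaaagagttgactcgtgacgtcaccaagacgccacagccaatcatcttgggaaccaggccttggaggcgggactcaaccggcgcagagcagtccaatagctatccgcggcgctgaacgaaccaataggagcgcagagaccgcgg
Mcm3: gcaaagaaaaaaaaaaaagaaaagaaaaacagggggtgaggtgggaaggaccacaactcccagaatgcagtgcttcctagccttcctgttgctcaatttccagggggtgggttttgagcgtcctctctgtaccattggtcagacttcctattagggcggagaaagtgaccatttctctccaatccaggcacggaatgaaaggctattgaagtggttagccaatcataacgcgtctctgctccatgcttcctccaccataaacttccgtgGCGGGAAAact
Uhrf1: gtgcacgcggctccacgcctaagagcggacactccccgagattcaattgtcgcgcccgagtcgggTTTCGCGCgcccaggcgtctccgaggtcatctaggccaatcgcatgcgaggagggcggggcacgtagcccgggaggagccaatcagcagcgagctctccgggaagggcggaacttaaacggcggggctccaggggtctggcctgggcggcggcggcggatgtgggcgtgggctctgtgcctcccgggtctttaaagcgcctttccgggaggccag

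Of the 44 members, 36 had a promoter entry, with 45 windows in all, and 15 of the 36 genes held an E2F-type match. The share was 33.3% of the 45 member windows, against 2.265% of all 32851 windows of the same length and 3.646% of the 13027 windows of the other tested genes. CCAAT, the core of another common promoter element, was found in 60% of member windows, 37.4% of all windows and 37.3% of the windows of the other tested genes. TTTGAA, a core of the element read in late cell cycle genes, was found in 13.3% of member windows, 17.9% of all windows and 12% of the windows of the other tested genes. Large and small changes were both found with a match, and large ones without it. The largest member changes on the log2(FPKM + 1) scale were those of Mcm5 and Uhrf1, with a match, and Rrm2 and Tk1, with none. The match of Uhrf1 lay only in the window printed above. The matches of Dnmt1, Lig1, Mcm7 and Cdc6 also lay in windows wholly inside the annotated gene. A Dnmt1 window that spans the start of its gene held no E2F-type match. Rfc3, among the smallest changes, held a pair of matches. These are letter matches in a fixed window and say nothing about binding. A part of E2F factors in the falls was not tested.

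The recovered denominators of the libraries were 47800000 to 67200000 fragments, and each member had at least 57 fragments in every library. Foxl2 itself was at 11.1, 19.3 and 12.9 FPKM in controls 1, 2 and 4 and at 12.7, 14.3, 14.8 and 17.2 FPKM in Foxl2LsL libraries 1 to 4. Its log2 fold change was 0.06 (limma with Benjamini-Hochberg, adjusted p 0.818; SE 0.18), so the table does not show a rise in the libraries labelled Foxl2LsL, and directions below are given for the labels as they stand. Strand use is not stated, so fragments of Foxl2 and its antisense neighbour Foxl2os cannot be told apart where they overlap. Control 4 stood apart from controls 1 and 2: on the second principal component of log2(FPKM + 1), which held 16.7% of the variance, it lay at -31.9 against 25.2 and 8.53, and the Foxl2LsL libraries lay between -10.5 and 10.2. Defining markers of uterus were present, with Krt8 (epithelium) at 141 to 317 FPKM, Myh11 (smooth muscle) at 81.0 to 229 and Pdgfra (stroma) at 9.39 to 38.3. The ovarian gene Fshr was at 0.110 FPKM or less. Ovgp1, an oviduct product, reached 291 FPKM in control 2 and was at 1.65 to 19.7 FPKM in the other 6 libraries.

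The 44 listed replication genes were lower as a group in the libraries labelled Foxl2LsL. The list was chosen with earlier results of these data known, and it leaves out some subunits of the same complexes. Of 44 members, 43 passed an adjusted p of 0.05 as lower, none as higher, and Gins4 did not pass (limma, Benjamini-Hochberg over all genes); the log2 fold change was negative for all 44. The background was 23.9% of the 13334 tested genes lower and 16.7% higher past the same threshold, 40.6% in either direction. In the list of remaining replisome subunits, described below, 3 of 12 were lower and 1 was higher past it. The highest Foxl2LsL library lay below the lowest control for 44 of 44 members, against 27.9% of all tested genes. Orc1, Cdc6, Mcm10 and Pole averaged 0.603, 0.741, 0.686 and 0.945 FPKM in Foxl2LsL libraries. They passed the filter on low values only through the controls. A fall of at least 1 on the log2(FPKM + 1) scale, past the threshold, was seen for 28 members, against 4.16% of all tested genes. The median log2 fold change was -1.14 over the members and -0.05 over all tested genes. The members' mean FPKM in the Foxl2LsL libraries was 14.1% (Mcm10) to 85.9% (Gins4) of the control mean, with a median of 40.3%. In bulk tissue, fewer dividing cells and less of these RNAs per cell cannot be told apart.

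**Figure D1:**
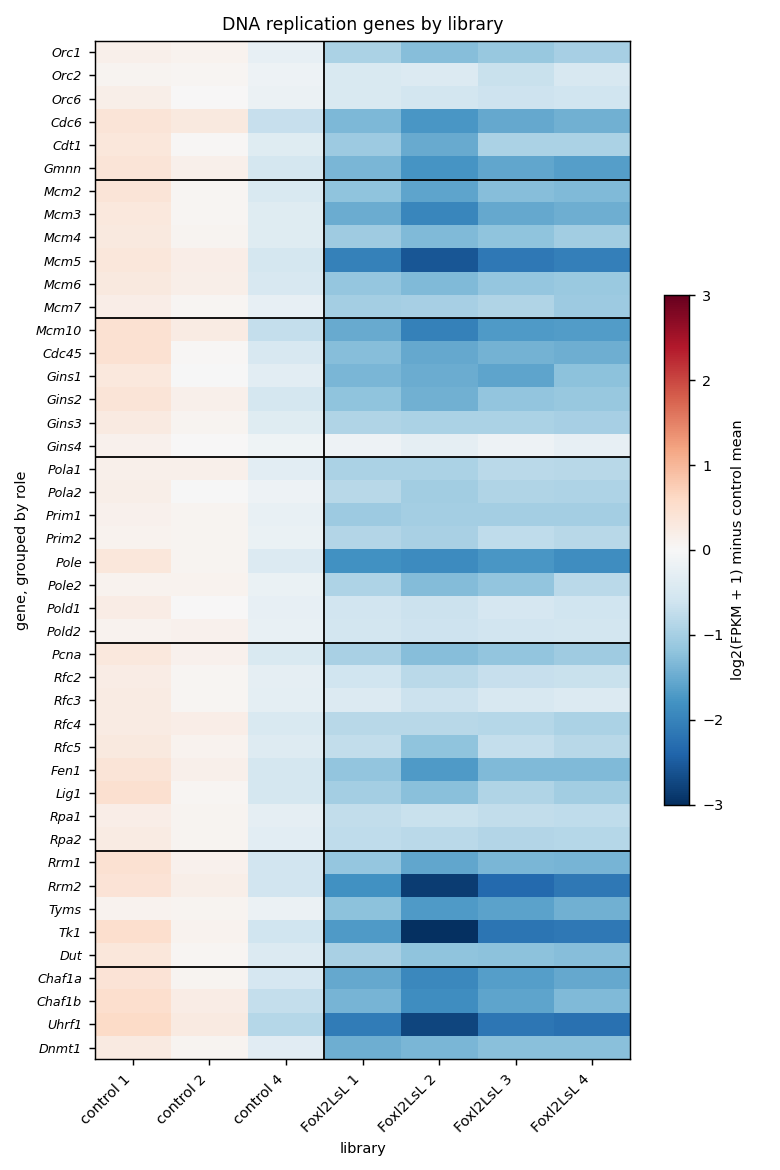
Each member's log2(FPKM + 1) minus its control mean (colour, log2 units) in the 3 control and 4 Foxl2LsL libraries (columns), with genes in rows and black lines between roles. Foxl2LsL columns are blue for nearly every gene, Gins4 is close to white, and control 4 is paler or bluer than controls 1 and 2.

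**Figure D2:**
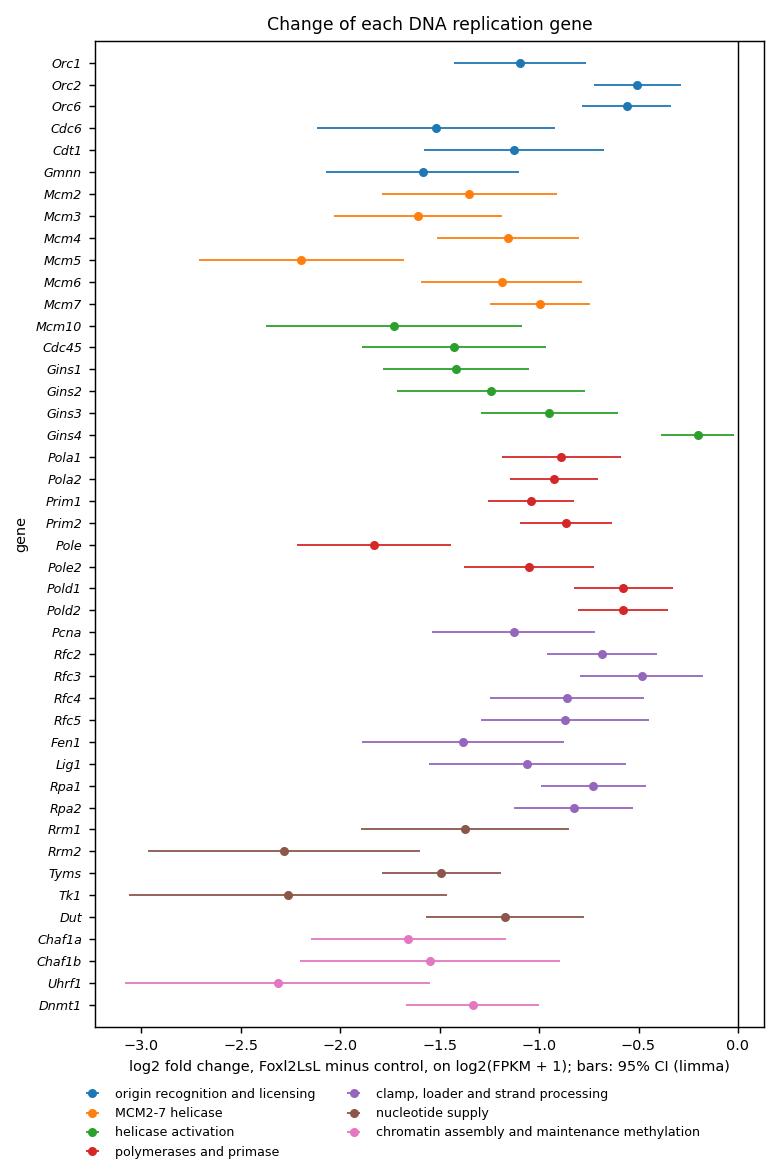
Log2 fold change of each member on the log2(FPKM + 1) scale (points) with its 95% confidence interval from limma, not adjusted for multiple genes (bars), coloured by role. Values run from -2.32 for Uhrf1 to -0.20 for Gins4.

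All 6 genes of origin recognition and licensing fell, with a median log2 fold change of -1.11 (range -1.59 to -0.51). Gmnn encodes geminin, the inhibitor of relicensing. It was at 19.6, 16.5 and 9.92 FPKM in controls 1, 2 and 4 and at 5.09, 3.64, 4.40 and 4.01 FPKM in Foxl2LsL libraries 1 to 4. The Foxl2LsL values lay close together below control 4, with a log2 fold change of -1.59 (limma with Benjamini-Hochberg, adjusted p 0.00134; SE 0.21). Cdc6, the ATPase that loads the helicase together with the origin recognition complex, was at 5.53, 5.05 and 2.09 FPKM in controls and at 0.951, 0.487, 0.701 and 0.826 FPKM in Foxl2LsL libraries. Control 4 was less than each of the other controls by more than the whole Foxl2LsL range, and Cdc6 fell to 17.6% of the control mean (log2 fold change -1.52, SE 0.26; limma, adjusted p 0.00336). Such low genes are compressed on this scale: limma-voom on the recovered fragments gave Cdc6 a log2 fold change of -2.39. Orc1, the subunit that comes and goes with the cycle, went from 2.43 to 0.603 FPKM, 24.8% of the control mean, a change of -1.09 on the log2(FPKM + 1) scale and of -1.86 with a pseudocount of 0.1. Orc2, a core subunit that stays with the complex, was at 10.7, 10.5 and 8.99 FPKM in controls and at 7.06, 7.27, 5.92 and 6.92 FPKM in Foxl2LsL libraries. It had the smallest change of the role (-0.51, SE 0.09; limma, adjusted p 0.00484). Orc6 (-0.56) was close to it, and Cdt1, the loader that geminin blocks, lay between (-1.13).

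The 6 MCM2-7 genes encode the subunits of the ring that unwinds DNA. All 6 fell, with a median log2 fold change of -1.27. Mcm5 (chromosome 8, 75109569 to 75128439, plus strand; GENCODE M21 positions on GRCm38, here and below) stood at 33.8, 30.5 and 18.1 FPKM in controls 1, 2 and 4 and at 5.72, 3.67, 5.25 and 5.66 FPKM in Foxl2LsL libraries 1 to 4. It fell to 18.5% of the control mean, its mean going from 27.4 ± 8.29 (SD, n = 3) to 5.08 ± 0.958 FPKM (SD, n = 4), a change of -2.20 (limma with Benjamini-Hochberg, adjusted p 0.000560; SE 0.22). Mcm3 was at 39.9, 33.0 and 24.3 FPKM and at 10.7, 7.49, 10.3 and 10.9 FPKM, with Foxl2LsL 2 below the other 3 of its group (log2 fold change -1.61, SE 0.18). Mcm7, the smallest change, was at 41.7, 37.6 and 30.4 FPKM and at 17.5, 17.8, 19.0 and 16.6 FPKM (-0.995, SE 0.11; limma, adjusted p 0.000707). Mcm2 (-1.35), Mcm6 (-1.19) and Mcm4 (-1.16) lay between.

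The ring holds 1 copy of each subunit, and the share of each gene in the summed FPKM of the 6 was compared. FPKM is per length, so comparing levels between genes relies on the deposited gene lengths, which were not checked against the RNAs present. Mcm5 made up 15.2% ± 1.30 (SD, n = 3) of the sum in controls and 7.76% ± 0.922 (SD, n = 4) in Foxl2LsL libraries. The share of Mcm7 rose, from 20.8% ± 2.06 to 27.4% ± 2.88, though its level fell to 48.4% of the control mean. Shares are parts of a fixed whole, so a lower share of Mcm5 by itself raises those of the others. The shares are thus not separate results. The groups did not overlap for Mcm3, Mcm4, Mcm5, Mcm6 or Mcm7, whereas the share of Mcm2 was 16.8% in both. No test was made of these shares. Mcm7 shares exon bases with Ap4m1 and Cops6 on the opposite strand and with Mir25 and Mir93 on its own strand, and fragments of shared bases cannot be told apart where counting ignored strand.

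Of the 6 genes of helicase activation, 5 fell. Mcm10, which helps the loaded ring to open and bind primase, was at 6.64, 5.61 and 2.38 FPKM in controls and at 0.956, 0.356, 0.695 and 0.738 FPKM in Foxl2LsL libraries. It kept the smallest share of its control mean of all members, 14.1% (log2 fold change -1.73, limma with Benjamini-Hochberg, adjusted p 0.00271; SE 0.28; -2.74 by limma-voom on fragments), with at least 67 fragments per library. Cdc45, a partner of the ring in the active helicase, was at 10.6, 7.71 and 5.10 FPKM and at 2.497, 1.93, 2.19 and 2.07 FPKM (-1.43, SE 0.20; limma, adjusted p 0.00165). Cdc45 values of the Foxl2LsL group all lay under 2.5 FPKM.

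GINS is a complex of 4 proteins that holds CDC45 to the ring. Gins1 (-1.42), Gins2 (-1.24) and Gins3 (-0.95) fell. Gins4 (chromosome 8, 23226616 to 23237659, minus strand) was at 18.3, 16.8 and 15.1 FPKM in controls and at 14.9, 13.8, 14.9 and 13.95 FPKM in Foxl2LsL libraries. Its groups came within 1.017-fold of touching, and its log2 fold change of -0.20 (SE 0.08) had a 95% interval of -0.39 to -0.02 before adjustment and an adjusted p of 0.0735 (limma, Benjamini-Hochberg). Gins4 passed when control 4 was left out (-0.27; limma, adjusted p 0.0280), with array weights and with an epithelial score as a covariate. Over all alternatives its adjusted p was 0.0128 to 0.203.

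All 8 polymerase and primase genes fell, with a median log2 fold change of -0.91. Pole, the catalytic subunit of the leading strand polymerase epsilon, was at 7.70, 6.27 and 4.21 FPKM in controls and at 0.946, 0.857, 1.07 and 0.908 FPKM in Foxl2LsL libraries. This was the widest gap between groups of any member, the lowest control being 3.94-fold above the highest Foxl2LsL library (log2 fold change -1.83, limma with Benjamini-Hochberg, adjusted p 0.000402; SE 0.17; -2.62 by limma-voom). Pole2, its accessory subunit, was at 7.25, 7.21 and 5.69 FPKM and at 3.03, 2.14, 2.41 and 3.38 FPKM (-1.05, SE 0.14). Pold1, the catalytic subunit of the lagging strand polymerase delta, was at 18.7, 16.2 and 13.4 FPKM and at 10.5, 9.93, 10.9 and 10.2 FPKM, the smallest change of the role (-0.58, SE 0.11; limma, adjusted p 0.00487). Pold2, another delta subunit, had the same size of change (-0.58). The subunits of polymerase alpha and primase, which start each new strand, were close to each other at -0.89 (Pola1), -0.92 (Pola2), -1.04 (Prim1) and -0.86 (Prim2).

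All 9 genes of the clamp, its loader and strand processing fell, with a median log2 fold change of -0.86. Pcna, the sliding clamp and the most abundant member, was at 107, 93.5 and 62.5 FPKM in controls and at 42.9, 34.6, 37.3 and 40.4 FPKM in Foxl2LsL libraries. The control mean was 87.8 ± 22.9 (SD, n = 3) and the Foxl2LsL mean 38.8 ± 3.63 FPKM (SD, n = 4), a log2 change of -1.13 (limma with Benjamini-Hochberg, adjusted p 0.00246; SE 0.18). Fen1, the nuclease that trims Okazaki fragments, was at 20.5, 17.2 and 10.5 FPKM and at 6.22, 4.08, 5.63 and 5.58 FPKM (-1.38, SE 0.22). Rfc3, a subunit of the clamp loader, was at 17.5, 15.1 and 11.6 FPKM and at 10.8, 8.94, 10.1 and 10.7 FPKM. Its groups nearly met, and its change was -0.48 (SE 0.13; limma, adjusted p 0.0235). Rfc3 lost its call without control 1 (adjusted p 0.0606), control 2 (0.0765), Foxl2LsL 2 (0.0543) or Foxl2LsL 3 (0.0566), all by limma, and over all alternatives its adjusted p was 0.000880 to 0.0771. The other loader subunits fell by 0.69 (Rfc2), 0.86 (Rfc4) and 0.87 (Rfc5) on the log2 scale, Lig1, which seals Okazaki fragments, by 1.06, and the subunits Rpa1 and Rpa2 of the protein that coats unwound strands by 0.73 and 0.83.

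All 5 genes of nucleotide supply fell, each by more than 1 on the log2 scale, with a median of -1.49. Rrm2 (chromosome 12, 24708241 to 24714146, plus strand) encodes the subunit of ribonucleotide reductase that sets its activity in S phase. It was at 23.3, 19.8 and 11.3 FPKM in controls and at 4.24, 1.55, 2.68 and 3.15 FPKM in Foxl2LsL libraries. Rrm2 fell to 16% of the control mean, a log2 fold change of -2.28 (limma with Benjamini-Hochberg, adjusted p 0.00124; SE 0.29). Tk1, the thymidine kinase of dividing cells, was at 39.2, 29.7 and 17.7 FPKM and at 7.75, 2.52, 5.21 and 5.42 FPKM. Within each group its highest library was over 2-fold above its lowest, and its SE was the largest of any member (-2.26, SE 0.34; limma, adjusted p 0.00221). Dut, which removes dUTP, was at 18.7, 15.2 and 10.7 FPKM and at 6.91, 5.67, 5.65 and 5.42 FPKM (-1.17, SE 0.17). Tyms, which makes thymidylate, had a change of -1.49 and the lowest adjusted p of the members (0.000317; limma, Benjamini-Hochberg). Rrm1, the large reductase subunit, had a change of -1.37.

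All 4 genes of chromatin assembly and maintenance methylation fell, with a median log2 fold change of -1.60. Uhrf1 (chromosome 17, 56303321 to 56323486, plus strand) was at 39.7, 31.7 and 14.1 FPKM in controls and at 5.36, 3.03, 5.06 and 4.71 FPKM in Foxl2LsL libraries. Its change was the largest of the members on the log2(FPKM + 1) scale, -2.32 (limma with Benjamini-Hochberg, adjusted p 0.00180; SE 0.33), and a wide spread among controls, 28.5 ± 13.1 FPKM (SD, n = 3), against 4.54 ± 1.04 FPKM (SD, n = 4). Chaf1a, a subunit of the chromatin assembly factor that deposits histones on new DNA, was at 16.1, 12.7 and 8.07 FPKM and at 3.47, 2.37, 3.12 and 3.47 FPKM (-1.66, SE 0.21). Dnmt1, the maintenance methyltransferase, was at 28.4, 24.5 and 18.1 FPKM and at 7.81, 8.35, 9.18 and 9.25 FPKM (-1.33, SE 0.14; limma, adjusted p 0.000679). Its Foxl2LsL values were tight, and the order of the 4 libraries differed from that of Uhrf1. Chaf1b, the partner of Chaf1a, had a change of -1.55.

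The question of whether partner proteins fell by the same amount was put to 8 pairs, as the difference of their log2(FPKM + 1) in each library. In 6 pairs the groups did not overlap, and each of these had a two-sided exact permutation p of 0.0571, the smallest that 3 against 4 libraries allow, which became 0.0762 after Benjamini-Hochberg adjustment over the 8 pairs. No pair could therefore pass 0.05. Uhrf1 minus Dnmt1 averaged 0.16 ± 0.44 over the controls (SD, n = 3) and -0.82 ± 0.31 over the Foxl2LsL libraries (SD, n = 4), Uhrf1 having the larger fall. Rrm2 minus Rrm1 was tight in controls, from -0.77 to -0.67, and ran from -2.01 to -1.39 in Foxl2LsL libraries. Pole2 minus Pole went from 0.15 ± 0.22 to 0.93 ± 0.23. Orc1 minus Orc2 changed by -0.59, Gmnn minus Cdt1 by -0.46 and Prim1 minus Prim2 by -0.18. These sizes depend on the pseudocount where a partner is low. With 0.1 in place of 1, the pair difference Orc1 minus Orc2 was -1.30 and the pair difference Pole2 minus Pole was 1.24. The pair difference Prim1 minus Prim2 was then -0.12, with an exact permutation p of 0.229. Pold1 minus Pold2 was -0.51 in both groups (exact permutation p 1), with libraries from -0.62 to -0.39 in controls and from -0.55 to -0.45 in Foxl2LsL. Chaf1b minus Chaf1a was -0.23 ± 0.19 and -0.12 ± 0.068, and its groups overlapped (exact permutation p 0.514, adjusted 0.588).

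**Figure D3:**
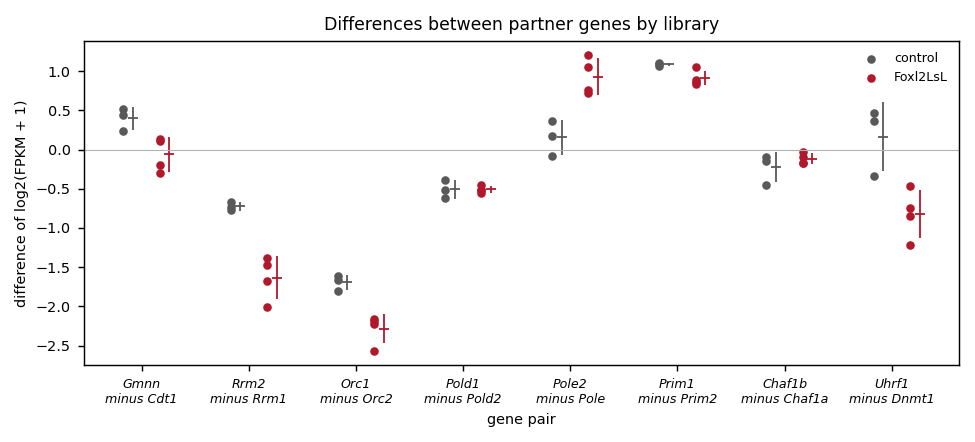
Difference of log2(FPKM + 1) between partner genes (vertical axis, log2 units) in each control (grey) and Foxl2LsL (red) library, with the mean and SD beside the points. The groups are apart in 6 of 8 pairs and share the same level for Pold1 minus Pold2.

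Further genes of the pathway came from 7 lists with 98 genes, all tested, of which 66 fell and 3 rose past the threshold (limma, Benjamini-Hochberg over all genes). Sizes below, and the order of genes by size, are on the log2(FPKM + 1) scale. Clspn, Ticrr, Recql4, Dscc1, Dna2, Ccne1, Ccne2, E2f7, E2f8, Mybl2, Bub1 and Cenpf averaged under 1 FPKM in Foxl2LsL libraries. They passed the filter on low values only through the controls, so they could enter the counts of falls but not of rises. In the list of remaining replisome subunits, which also holds a few MCM relatives, 3 of 12 fell, 1 rose and 8 did not pass, with a median log2 fold change of -0.11. That share is near the 23.9% lower among all tested genes. Within the origin recognition complex, Orc3 (-0.02), Orc4 (-0.18) and Orc5 (0.02) did not pass (limma, adjusted p 0.872, 0.186 and 0.902). In polymerase epsilon the small histone-fold subunits Pole3 (-0.32) and Pole4 (-0.30) fell by less than 0.5. In polymerase delta Pold3 did not pass (-0.07) and Pold4, a small accessory subunit, rose from 3.15 ± 0.259 to 4.59 ± 0.538 FPKM (SD of 3 and 4 libraries), by 0.43 on the log2 scale (limma, adjusted p 0.0125). Rfc1 (-0.13), the large loader subunit, and Rpa3 (-0.23) did not pass (limma, adjusted p 0.191 and 0.118). Mcm8, an MCM relative used in DNA repair, fell (-0.88), and its partner Mcm9 was at 0.03 (limma, adjusted p 0.851). These differences in size between subunits of a complex were not tested beyond the pairs above.

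**Figure D4:**
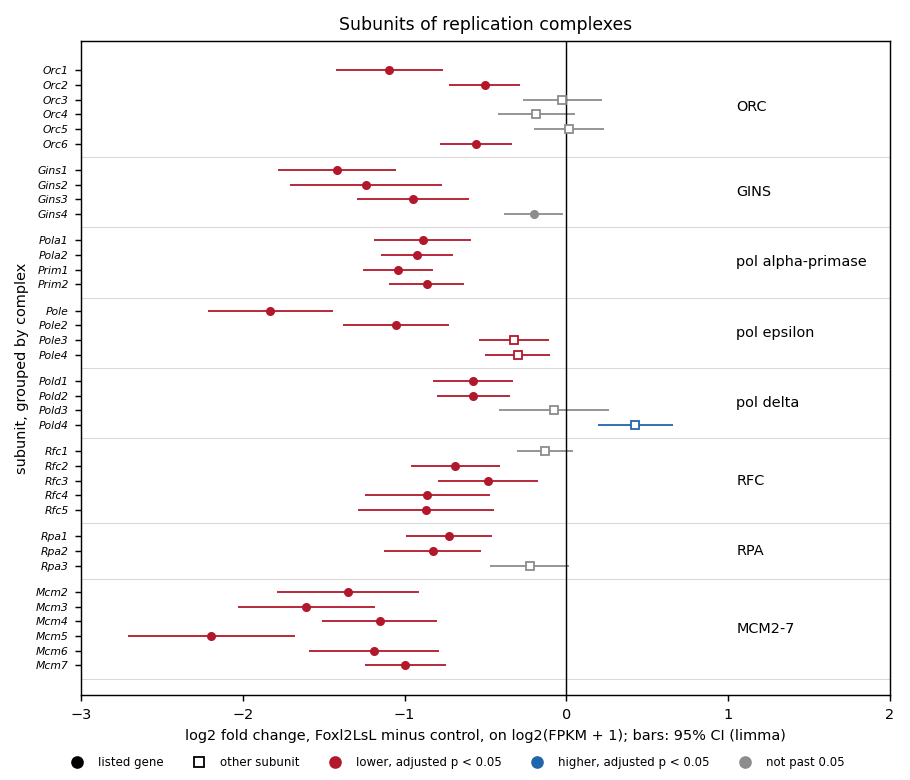
Log2 fold change on the log2(FPKM + 1) scale with its 95% confidence interval from limma for the subunits of 8 replication complexes, circles for members and open squares for other subunits. Members lie to the left of 0, while Orc3, Orc4, Orc5, Pold3, Rfc1 and Rpa3 lie near it and Pold4 to its right.

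Among proteins of origin firing and the fork, 19 of 22 genes fell and none rose (median -1.12). Pclaf, a small PCNA partner, fell from 27.0 ± 13.1 to 2.996 ± 1.25 FPKM (log2 fold change -2.73), and Top2a, the topoisomerase that untangles replicated DNA, from 43.1 ± 17.8 to 6.06 ± 2.59 FPKM (-2.63; SD, n = 3 and 4). Cdc7 (-1.03) and Dbf4 (-1.64), the kinase that fires origins and its activator, also fell. In the list of licensing turnover and S phase cyclins, 8 of 10 fell, led by Ccna2 (-2.35) and Ccne1 (-2.20), the A and E type cyclins that drive S phase. Dtl, the adaptor that marks CDT1 for destruction, fell by 1.54 on the log2 scale.

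Of the nucleotide enzymes 8 of 14 fell and 2 rose, beside 23.9% lower and 16.7% higher among all tested genes. The count that rose is thus near the background. Dck, a deoxynucleoside salvage kinase, fell from 8.63 ± 2.10 to 2.38 ± 0.393 FPKM (-1.495), and Ctps, the CTP synthase, by 1.29. Those that rose were Rrm2b, the reductase subunit used outside S phase, from 3.85 ± 0.379 to 6.61 ± 0.866 FPKM (0.65; limma, Benjamini-Hochberg adjusted p 0.00320), and Tk2, the mitochondrial thymidine kinase, from 11.4 ± 0.852 to 18.2 ± 2.41 FPKM (0.62; limma, adjusted p 0.00364). Their S phase counterparts Rrm2 and Tk1 are the members that fell to 16% and 18.1% of the control mean. Dguok, the mitochondrial deoxyguanosine kinase, was at 0.29 and did not pass (limma, adjusted p 0.0506).

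Of the chromatin partners 5 of 9 fell, led by Asf1b (-2.03), a histone chaperone of dividing cells, and Hells (-1.85), a remodeller that works with DNA methylation. Asf1a, the paralog of Asf1b, was at -0.01 (limma, adjusted p 0.946). In the list of E2F and pocket proteins 10 of 18 fell and none rose. E2f8 (-1.98), E2f1 (-1.65) and E2f7 (-1.63) changed most on this scale, whereas by limma-voom on fragments E2f7 (-3.18) and E2f8 (-3.02) fell further than E2f1 (-2.24). E2f1 is an activator of S phase genes, and E2f7 and E2f8 are repressors. Of the pocket proteins, which restrain E2F, Rbl1 fell (-0.68; limma, adjusted p 0.0175), while Rb1 and Rbl2 were at -0.14 and 0.27 and did not pass (limma, adjusted p 0.339 and 0.177). All 13 proliferation and mitosis markers fell, with a median of -2.07 beside -1.14 for the members. Ccnb1 (-2.52) and Ccnb2 (-2.41), the mitotic cyclins, changed most on this scale. By limma-voom on fragments Bub1, a checkpoint kinase, was at -3.05, beside -3.04 for Ccnb1 and -2.67 for Ccnb2. Mki67 fell from 16.2 ± 5.53 to 2.31 ± 0.862 FPKM.

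The controls were spread in the same order across the members. Control 4 was the lowest control for 44 of 44 members, against 45.8% of all tested genes, and the order control 1 above 2 above 4 held for 43, against 28.7%. Pold2 was the exception. Control 1 was thus the highest control for 43, against 36.9% of all tested genes. Control 4 stood at 38.8% (Mcm10) to 86.4% (Gins4) of the mean of controls 1 and 2, with a median of 65.1%. Among the Foxl2LsL libraries, number 2 was lowest for 32 members, against 33.2% of all tested genes, and number 1 highest for 22, against 31.1%. The summed FPKM of the 44 members was 1015, 876.5 and 609.3 in controls 1, 2 and 4 and 376, 315, 354.3 and 358 in Foxl2LsL libraries 1 to 4.

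Markers of tissue compartments differed along the same libraries. Summed FPKM of 7 simple epithelium markers was 1230, 884 and 593 in controls 1, 2 and 4, the order of the members, and 977 to 1343 in the Foxl2LsL libraries, overlapping the controls. Of the 7, 2 rose and none fell, and the others did not pass. Beside this and the marker counts below, 23.9% of all tested genes were lower and 16.7% higher past the threshold. A fit chosen after seeing the data took the mean log2 level of the 7 epithelial markers as a covariate. In it 44 of 44 members were lower past the threshold, with a median log2 fold change of -1.45 (limma, Benjamini-Hochberg). That level was 6.18 to 7.20 in controls and 6.79 to 7.27 in Foxl2LsL libraries. A covariate that itself differs between groups can shift the group difference, so neither this fit nor the adipose one below is a separate check. With no covariate and without control 4, 44 members were lower with a median of -1.34. Without control 2, the library with Ovgp1, 42 were, with a median of -1.11. Summed smooth muscle markers were 885 to 1721 in controls, control 4 being the highest, and 1555 to 1992 in Foxl2LsL libraries (2 of 7 rose). Summed stroma markers were 655 to 862 and 1170 to 1308 (1 of 7 rose and 3 fell). That rise rests on Dcn, at 367 to 467 FPKM in controls and 922 to 1034 FPKM in Foxl2LsL libraries, and the mean log2 level of the same 7 genes went the other way, from 5.52 to 6.47 in controls and from 5.26 to 5.43 in Foxl2LsL libraries. Summed endothelium markers were 112 to 151 and 76.6 to 85.1 (5 of 6 fell). Leukocyte markers were 26.3 to 37.6 and 40.1 to 78.1 (2 of 7 rose, 2 not tested). Uterine gland markers were 26.5 to 41.9 and 4.67 to 6.98 (2 of 5 fell, 3 not tested). The part of these compartments in the result was not tested. Adipose markers summed to 0.053 to 19.9 FPKM in controls and 0.835 to 62.8 FPKM in Foxl2LsL libraries, and with their mean log2 level as a covariate 43 members were lower (median -1.02). Oviduct and ciliated markers (1 of 4 fell, 2 not tested) summed to 4.42 to 295.9 and 9.87 to 16.6 FPKM. Ovary markers (Star rose, the other 5 of 6 not tested) summed to 3.10 to 3.37 and 5.28 to 7.70 FPKM. The hemoglobin genes Hba-a1, Hbb-bs and Hbb-bt were listed at 0 in all 7 libraries, and the 5 erythroid markers summed to 1.32 FPKM or less.

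**Figure D5:**
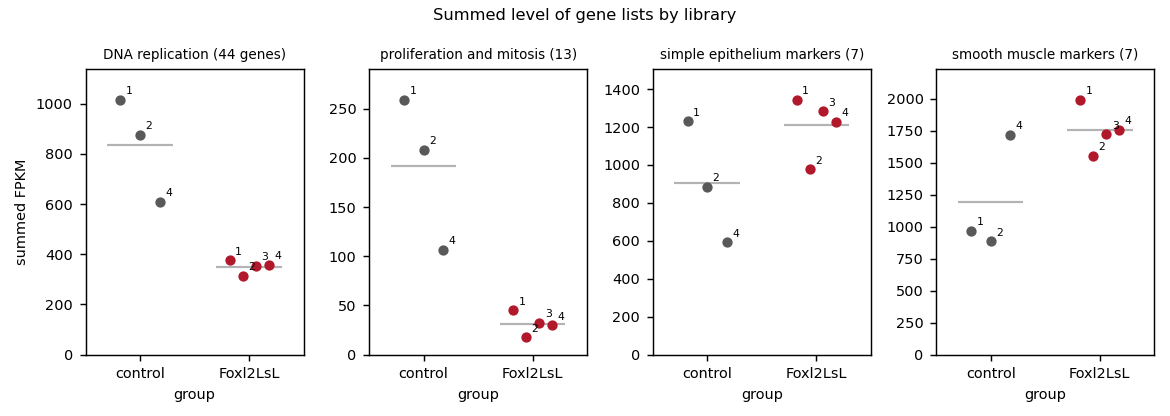
Summed FPKM of the 44 members, 13 proliferation and mitosis markers, 7 simple epithelium markers and 7 smooth muscle markers in each library (points numbered by replicate; grey lines are group means). The members and mitosis markers are separate between the groups, whereas the epithelial and muscle sums overlap.

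In GENCODE M21, 12 of the 44 share exon bases with another listed gene, among them Fen1 with Tmem258, Tk1 with Afmid, Cdc45 with Ufd1 and Chaf1a with Ubxn6, all on the opposite strand. No source used here says whether counting used strand or how fragments of shared bases were assigned. The levels of these 12 may thus include fragments of the neighbour or lack some of their own.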

How the data were processed

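RNA sequencing was measured in 7 libraries of whole uterus. Per the file headers, the authors deposited FPKM (fragments scaled by gene length and by the size of the library) with gene lengths, for 24964 symbols and each library by itself. Per the submitters' processing notes the tools were STAR 2.5.2b, featureCounts 1.5.0-p1 of Subread and DESeq2 1.12.4, on the mouse build mm10. Their settings, the annotation and the use of strand are not given in the sources used here.

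Within a library, the products of FPKM and length were whole multiples of a common step. Of 1653 to 1832 low values per library, 100% lay within 0.1 of a whole fragment, where chance gives 20%. Denominators were 47800000 to 67200000 fragments. Fragments can be PCR copies, so they give counting error only. These recovered fragments were used for depth and for limma-voom.

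Tested were 13334 genes, those averaging 1 FPKM or more plus Foxl2. Their log2(FPKM + 1) values went into limma 3.58.1 in R 4.3.3 (lmFit, then eBayes with trend), and p-values were adjusted over all of them by Benjamini-Hochberg at 0.05. Fold changes on this scale understate the change of low genes. In simulated data for 11999 genes, the test found 182 of 200 genes that had been shifted by 1.5 (log2), with the right sign, and called 12 that had not. The simulation left out the lowest genes, shifted few genes and drew the noise of each gene independently. In the data 40.6% of tested genes passed, and the controls were spread in the same order across the members. These rates therefore do not carry over to the data. Partner genes were compared with two-sided exact permutation tests over 35 splits, adjusted over 8 pairs. The rest used pandas 2.3.3 and numpy 2.4.6 under Python 3.11.15, with plots by matplotlib 3.10.9. Groups and replicate numbers came from the labels. Labels do not name separate animals, so p-values measure the spread between these samples. The alternatives covered scaling, pseudocount, filter, weights, a replicate block, marker scores and leaving out each library.

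The members and lists were chosen with earlier results of these data known. All members are accounted for. Values by library are given for the 2 largest changes and the smallest in each role, and for members short of the threshold. From each further list up to 2 genes a direction are given by size, and other genes named from these lists were chosen after their values were seen.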

Additional observations from a re-analysis of the deposited data

Results flagged for a closer look

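In the group of 4 Foxl2LsL libraries, 53 sets of values were examined for a library far from the other 3, by Dixon's test of the gap over the range at 95%, and 4 stood out. Chance flags about 1 in 20. Mcm3 was at 7.49 FPKM in Foxl2LsL 2, against 10.3 to 10.9 FPKM in the other 3. Prim1 was at 8.31 FPKM in Foxl2LsL 1, against 8.71 to 8.79 FPKM. Dut was at 6.91 FPKM in Foxl2LsL 1, against 5.42 to 5.67 FPKM. The difference Orc1 minus Orc2 was -2.57 in Foxl2LsL 2, against -2.22 to -2.16. All 4 values lay on the same side of the controls as the rest of their group.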

How the results depend on the processing

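Of 21 alternatives, 19 were planned and the 2 marker covariates were chosen after seeing the data. Members gave 915 results under them, of which 906 kept direction and side of the threshold, 6 lost a call (all Rfc3), 3 gained one (all Gins4) and 0 reversed. Members lower past the threshold numbered 42 to 44 when any of the 7 libraries was omitted, with a median log2 fold change of -1.34 to -1.01. With the epithelial covariate that median was -1.45. Of all tested genes, 5409 passed, 3853 to 5328 without a library, and 3243 when the number was fitted as a replicate block over numbers 1, 2 and 4 (42 members lower). Dropping only the block from that fit gave 3975 genes and again 42 members. That is the same fit as leaving out Foxl2LsL 3. The 21 alternatives and 915 results thus count it again, with its lost call of Rfc3. Labels do not say that the numbers pair animals, and deviations of same-numbered libraries correlated at 0.228, -0.0306 and -0.112. Foxl2 had -0.15 with array weights and -0.10 to 0.28 without a library, so its direction is not settled. The pair difference Pold1 minus Pold2 was -0.012 with pseudocount 0.1 and -0.057 to 0.060 without a library, and the pair difference Chaf1b minus Chaf1a was -0.00073 to 0.18 without a library. Apart from the fits with fewer libraries, the cause was not tested. Depth limited Orc1 and Mcm10 most, with 57 and 67 fragments in the shallowest case.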
